A study of Homo sapiens with 16 samples.

Results

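MECOM, the gene that encodes EVI1, and 9 genes that surround it on chromosome band 3q26 were followed through RNA-Seq of MUTZ-3 cells. The 10 genes were chosen by symbol (MECOM, GOLIM4, MYNN, LRRC34, LRRC31, SEC62, GPR160, PHC3, PRKCI and SKIL), and all 10 were found among the 60623 genes counted. MUTZ-3 is an AML cell line with inv(3), and each of its 16 libraries is the single library of its condition. One library was untreated (0 h). At 12, 24 and 48 h there was a library each for the vehicle DMSO and for the PARP inhibitors (PARPi) olaparib, at 10 µM, and talazoparib, at 1 µM. The other 6 came from cells transduced with lentiviral shRNA vectors and selected with puromycin, a non-targeting control (NTC), shEVI1-2531 and shEVI1-2532 each giving a library on day 3 and on day 6. The comparisons asked whether the neighbours move with MECOM when PARPi lowers its transcript, and whether they also do so when an shRNA removes that transcript.

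EVI1 is a zinc finger transcription factor of the PRDM family that is needed in hematopoietic stem cells and is normally silenced as myeloid cells mature. In AML with inv(3) or t(3;3), an enhancer of GATA2 from band 3q21 is brought next to MECOM and drives EVI1. An shRNA acts on the transcript of its target, whereas a change in enhancer activity can reach more than one gene of a locus.

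In the coordinates of GRCh38, MECOM lies on the minus strand at chr3:169083499-169663775. GOLIM4 is the only one of the other genes on its centromeric side, with a gap of 987.6 kb. The remaining 8 follow on the telomeric side in the order MYNN, LRRC34, LRRC31, SEC62, GPR160, PHC3, PRKCI and SKIL, at gaps to MECOM of 109.1 kb for MYNN and 693.9 kb for SKIL. These are distances on the reference chromosome, and the breakpoints of the MUTZ-3 inversion were not used here. MYNN and LRRC34 end tail to tail 3.71 kb apart, and GPR160 and PHC3 end tail to tail 1.34 kb apart. The files hold 1 count per gene, so the rearranged and the other allele of MECOM, and its transcripts from the EVI1 start and the upstream MDS1 start, were counted together. RPL22P1 is counted separately within MECOM with 107 to 500 counts per library, and the other genes that overlap a member had at most 25.

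RefSeq (GRCh38.p14) gave 13 start sites for 10 of 10 members. The 250 bases before each start were searched on both strands for the RUNX motif TGTGGT, the C/EBP motif TTGCNNAA and the motif AGATAA of GATA factors and EVI1. The RUNX motif was present in 2 of 13 windows, one of MECOM and one of MYNN, and in 10.98% of all 35116 windows. The GATA motif was present in 2 of 13, one of MECOM and one of PHC3, and in 9.17% of all windows. The C/EBP motif was present in 1 of 13, that of LRRC31 at 185 bases before its start, and in 9.05% of all windows. The stretches below, each the longest part of its window outside annotated exons, are shown on the strand of the gene, with capitals for a match. They are given for MECOM and for the 4 neighbours whose levels moved most. The RUNX and GATA matches of MECOM lie outside the stretches shown. That of GATA is 29 bases before the EVI1 start used below, and the stretch of this start ends 137 bases before it.

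MECOM, MDS1 start (chr3:169663713-169663962, minus strand): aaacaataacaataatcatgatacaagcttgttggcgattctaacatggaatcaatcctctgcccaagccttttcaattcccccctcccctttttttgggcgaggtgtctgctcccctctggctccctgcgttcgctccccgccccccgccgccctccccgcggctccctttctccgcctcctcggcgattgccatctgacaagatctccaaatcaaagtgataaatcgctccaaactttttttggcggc
MECOM, EVI1 start (chr3:169146676-169146722, minus strand): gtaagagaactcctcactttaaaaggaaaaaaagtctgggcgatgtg
LRRC34 (chr3:169812987-169813154, minus strand): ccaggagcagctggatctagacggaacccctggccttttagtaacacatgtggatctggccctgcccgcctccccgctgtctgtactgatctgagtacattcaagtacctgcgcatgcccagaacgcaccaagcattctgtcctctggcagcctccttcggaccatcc
LRRC31 (chr3:169869936-169870185, minus strand): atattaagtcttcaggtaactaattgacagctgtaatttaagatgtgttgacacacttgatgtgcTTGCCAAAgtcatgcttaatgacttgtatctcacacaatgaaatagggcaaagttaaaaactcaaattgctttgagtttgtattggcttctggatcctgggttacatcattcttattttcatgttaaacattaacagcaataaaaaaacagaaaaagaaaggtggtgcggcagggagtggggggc
GPR160 (chr3:170037745-170037928, plus strand): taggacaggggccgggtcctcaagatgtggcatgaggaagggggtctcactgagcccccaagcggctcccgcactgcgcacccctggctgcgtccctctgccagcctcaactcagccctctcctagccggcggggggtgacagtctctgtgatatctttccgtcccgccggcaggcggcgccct
SKIL (chr3:170357465-170357677, plus strand): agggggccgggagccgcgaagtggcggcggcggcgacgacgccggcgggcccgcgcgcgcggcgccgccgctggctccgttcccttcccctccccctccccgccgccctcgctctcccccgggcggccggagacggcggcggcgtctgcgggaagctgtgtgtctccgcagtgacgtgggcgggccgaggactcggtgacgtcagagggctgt

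The sequences have little in common in base composition. SKIL has 78.4% G and C and 42 CpG dinucleotides in its 250-base window, whereas LRRC31 has 36.8% and 1 CpG. The windows of LRRC34, GPR160 and SKIL held none of the 3 motifs.

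Total counts ranged from 55999673 to 72681943 over the 10 PARPi, DMSO and untreated libraries and from 95523038 to 120716213 over the 6 of the knockdown. Levels are given as CPM, counts scaled to a common total over all genes in each library, and 3 counts equal 0.0249 to 0.0536 CPM. Of 8 myeloid markers, 8 had a median of at least 1 CPM, and MS4A1, EPCAM and ALB had at most 3 counts in each of 16 libraries. CD3E, a T cell gene, was measured at 1.14 to 9.27 CPM and PECAM1, which myeloid cells also carry, at 32.7 to 172 CPM, while COL1A1 was under 1 CPM in each library. CD34, a marker of immature cells, moved with the groups and had 432 CPM in DMSO, 138 CPM after olaparib and 94.5 CPM after talazoparib at 48 h. It had 765 CPM in NTC, 83.6 CPM with shEVI1-2531 and 3.37 CPM with shEVI1-2532 at day 6. The part of this shift in the levels of the members was not tested. In bulk RNA, fewer cells of a type and less RNA per cell cannot be told apart. The median log2 CPM ratio of 18597 genes was −0.18 for olaparib and −0.26 for talazoparib at 48 h, and −0.14 to −0.32 in the 4 shEVI1 libraries. TMM normalization offsets most of this shift, but not exactly. For shEVI1-2532 at day 3 it added 0.20 to a median of −0.28, and for shEVI1-2531 at day 6 it added 0.16 to −0.14.

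MECOM fell with time under both inhibitors. In DMSO it was measured at 51.1, 50.9 and 63.6 CPM at 12, 24 and 48 h, and in untreated cells at 28.4 CPM. After olaparib the levels were 46.1, 40.8 and 21.04 CPM, and after talazoparib 46.8, 31.4 and 8.54 CPM. All 6 inhibitor libraries lay below the DMSO library of their hour, with a small gap at 12 h and the widest gap at 48 h. NTC had 42.4 CPM at day 3 and 44.2 CPM at day 6, against 12.3 and 18.5 CPM with shEVI1-2531 and 4.51 and 4.03 CPM with shEVI1-2532. The targeted gene was thus lower in each of the 4 shEVI1 libraries, and shEVI1-2532 left the least of it, 10.6% and 9.10% of NTC. From low to high the 16 libraries began with shEVI1-2532 at both days, talazoparib at 48 h and shEVI1-2531 at day 3, and ended with DMSO at 48 h. The olaparib and talazoparib libraries at 12 h stood next to each other in this order, as did DMSO at 12 and 24 h, and within counting error neither pair can be ordered.

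**Figure D1:**
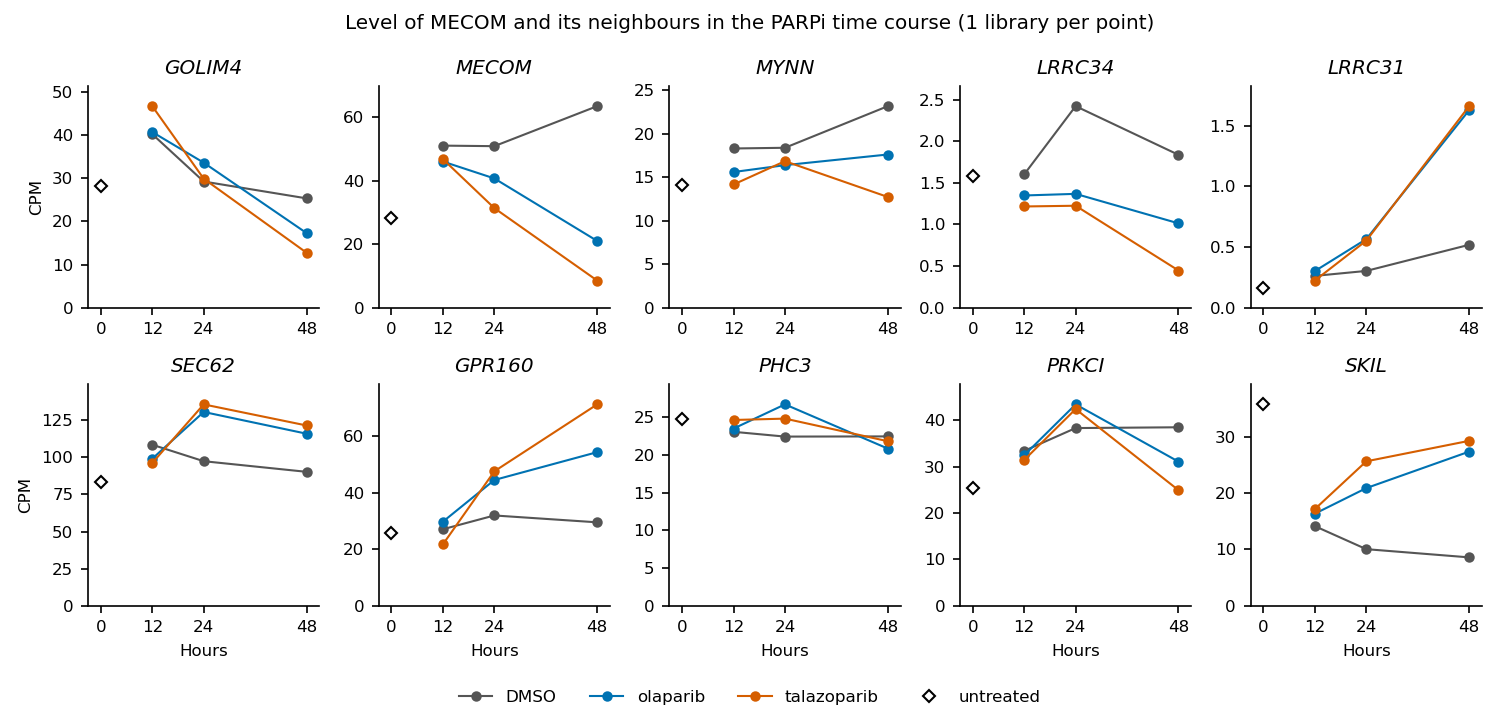
Level of each gene in CPM (y axis, linear, from 0) against hours (x axis) for DMSO, olaparib, talazoparib and untreated cells, 1 library per point. MECOM separated from DMSO mainly between 24 and 48 h, MYNN and LRRC34 lay below DMSO at each time, and LRRC31, GPR160 and SKIL ended above it.

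GOLIM4, MYNN, LRRC34 and PRKCI were lower than DMSO at 48 h after both inhibitors, and LRRC34 had the lowest ratio of these 4 after each. LRRC34, a leucine-rich repeat protein, had 104, 176 and 117 counts in DMSO at 12, 24 and 48 h, 85, 92 and 61 after olaparib and 87, 71 and 25 after talazoparib. Its log2 CPM ratios to DMSO were −0.25, −0.82 and −0.86 for olaparib and −0.40, −0.98 and −2.04 for talazoparib. The 95% interval from counting error was −2.73 to −1.41 for talazoparib at 48 h and included 0 for both inhibitors at 12 h, so the low counts of this gene limit it at 12 h. With shEVI1-2531 it had 69 and 53 counts at day 3 and 6, and with shEVI1-2532 35 and 18, against 132 and 78 in NTC. Each of the 10 treated libraries was below its own control, and the lowest ratio of −1.999 in the knockdown was that of shEVI1-2532 at day 6.

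MYNN, a zinc finger protein with a BTB domain and the nearest telomeric neighbour, moved less. It was measured at 18.3, 18.4 and 23.2 CPM in DMSO, 15.6, 16.4 and 17.6 CPM after olaparib and 14.2, 16.9 and 12.7 CPM after talazoparib. The ratio at 48 h was −0.40 (95% interval −0.51 to −0.28) for olaparib and −0.86 (−0.996 to −0.735) for talazoparib. With NTC it had 19.9 CPM at day 3 and 10.4 CPM at day 6, with shEVI1-2531 12.2 and 9.57 CPM, and with shEVI1-2532 8.94 and 7.52 CPM. The NTC libraries differed from each other by more than either shEVI1 library differed from NTC at day 6. The ratio of shEVI1-2531 at day 6 was −0.12 and turned to 0.04 with TMM scaling.

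GOLIM4, a Golgi membrane protein, was lower at 48 h and not before. It had 40.2, 29.2 and 25.3 CPM in DMSO, 40.7, 33.6 and 17.3 CPM after olaparib and 46.7, 29.9 and 12.7 CPM after talazoparib. The ratios at 48 h were −0.55 for olaparib and −0.99 for talazoparib, and 4 of 6 inhibitor libraries, those at 12 and 24 h, lay above DMSO. In the knockdown the 4 ratios ran from −0.69, for shEVI1-2531 at day 3, to −0.18, for shEVI1-2531 at day 6. The weaker shRNA against MECOM had the lowest GOLIM4 ratio, and the ratio of shEVI1-2532 at day 3 went from −0.19 to 0.01 with TMM scaling.

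LRRC31, SEC62, GPR160 and SKIL were higher than DMSO at 48 h after both inhibitors and, apart from SEC62 with shEVI1-2531 at day 3, higher than NTC in the shEVI1 libraries. SKIL, which encodes SnoN, a repressor of SMAD transcription factors, had 14.1, 10.1 and 8.60 CPM in DMSO, 16.4, 20.9 and 27.4 CPM after olaparib and 17.2, 25.6 and 29.3 CPM after talazoparib. Its log2 ratios to DMSO at 48 h were 1.67 (95% interval 1.53 to 1.81) and 1.77 (1.63 to 1.91). The highest level of SKIL was that of untreated cells, 35.7 CPM, so the inhibitor libraries at 48 h lay between DMSO and the untreated library. NTC had 5.24 and 3.63 CPM at day 3 and 6, shEVI1-2531 6.99 and 8.95 CPM and shEVI1-2532 8.06 and 12.2 CPM. Each of the 10 treated libraries was above its control.

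GPR160, a G protein-coupled receptor, had 27.1, 31.9 and 29.5 CPM in DMSO, 29.7, 44.5 and 54.3 CPM after olaparib and 21.7, 47.5 and 71.2 CPM after talazoparib. Talazoparib at 12 h was the one library below its control, and at 48 h the ratios were 0.88 and 1.27. NTC had 17.1 and 13.7 CPM, shEVI1-2531 35.4 and 30.6 CPM and shEVI1-2532 51.9 and 61.7 CPM. The 4 shEVI1 libraries lay above both NTC libraries, and shEVI1-2532 above shEVI1-2531 at both days, up to a ratio of 2.17.

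LRRC31, a leucine-rich repeat protein, was near the lower limit of detection in the controls. It had 17, 22 and 33 counts in DMSO, 19, 38 and 98 after olaparib and 16, 32 and 93 after talazoparib at 12, 24 and 48 h. NTC had 27 and 10 counts, shEVI1-2531 29 and 46, and shEVI1-2532 117 and 74. The ratio at 48 h was 1.65 for olaparib and 1.68 for talazoparib, and it was 2.38 and 3.00 for shEVI1-2532, with 95% intervals of 1.77 to 3.04 and 2.05 to 4.12. The intervals of both inhibitors at 12 h and of shEVI1-2531 at day 3 included 0.

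SEC62, a part of the machinery that moves finished proteins into the endoplasmic reticulum, changed by less. It had 108, 97.3 and 90.2 CPM in DMSO, 99.0, 130 and 116 CPM after olaparib and 96.1, 136 and 121 CPM after talazoparib. Both inhibitors lay below DMSO at 12 h and above it at 24 and 48 h. The ratios of the shEVI1 libraries ran from −0.05, for shEVI1-2531 at day 3, to 0.45, for shEVI1-2532 at day 6, and the lowest of them became 0.11 with TMM scaling.

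PHC3, a subunit of Polycomb repressive complex 1, and PRKCI, an atypical protein kinase C of cell polarity complexes, showed no shared direction. The PHC3 ratios ran from −0.11 to 0.25 after PARPi and from −0.67 to 0.34 after shEVI1, and those of both inhibitors at 48 h, −0.11 and −0.04, turned to 0.07 and 0.22 with TMM scaling. In the knockdown, PHC3 was below NTC at day 3 and above it at day 6 with both shRNAs. PRKCI had 38.5 CPM in DMSO, 31.1 CPM after olaparib and 24.9 CPM after talazoparib at 48 h. Its ratios there were −0.31 and −0.63, and −0.13 and −0.37 with TMM scaling. After shEVI1 its ratios ran from −0.24 to 0.37. GPR160 and PHC3 lie end to end, and only the first of them had the same sign of ratio in all 4 shEVI1 libraries.

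**Figure D2:**
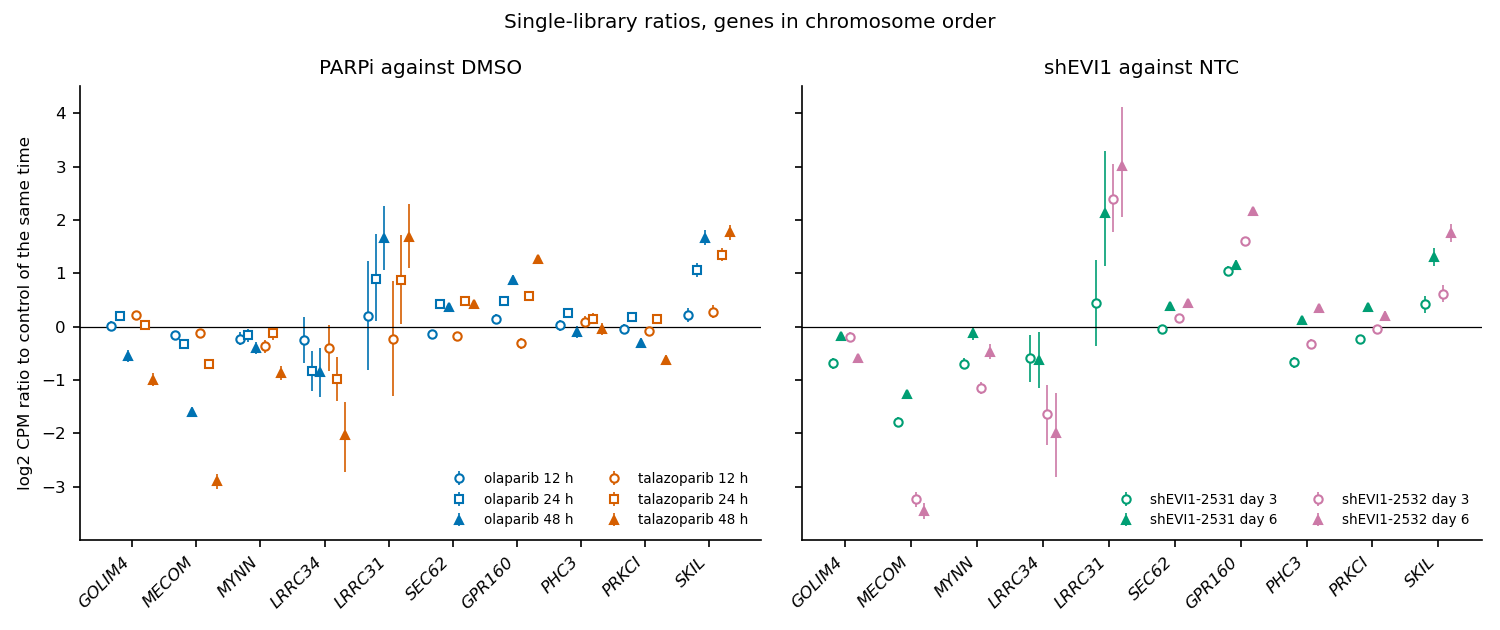
The y axis gives log2 CPM ratios of each inhibitor library to DMSO of its hour (left) and of each shEVI1 library to NTC of its day (right), with genes in chromosome order on the x axis. Bars are 95% intervals from counting error only. MECOM, MYNN and LRRC34 lay below 0 and SKIL above 0 in all 10 ratios, although MYNN for shEVI1-2531 at day 6 turned to 0.04 with TMM scaling.

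The tests used the time points as blocks, since no condition has a replicate. Genes were tested with edgeR's quasi-likelihood test on TMM-normalized counts, with Benjamini-Hochberg adjustment over all genes tested and a threshold of 0.05, and SE below is the standard error of the log2 fold change. P-values then weigh an effect against how far these libraries depart from the model, not against replicates. For the mean inhibitor effect, a change of that effect with time counts as such a departure. For the average of both inhibitors over 12, 24 and 48 h, 0 of 10 members passed, against 4.17% of 17218 genes, with 5 of 10 at an unadjusted p under 0.05. SKIL had the smallest adjusted p, with a log2 fold change of 1.08 (SE 0.28, edgeR adjusted p = 0.0546), followed by LRRC34 at −0.79 (SE 0.23, edgeR adjusted p = 0.0634). MECOM itself had −0.92 (SE 0.33, edgeR adjusted p = 0.0972). DESeq2 called 3 members, MECOM, LRRC34 and SKIL, along with 3438 of all 17218 genes. Without the 12 h libraries edgeR called 6 members, and 3768 of all 16692 genes tested there.

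A test of the slope asked whether the inhibitor effect changed with each doubling of time. Its p-values followed a normal distribution, with a spread shared over genes rather than estimated for each gene. They can therefore be very small without replicate libraries and are not on the same footing as those of the mean effect. Of the 10 members 5 passed, against 19.8% of all genes, 4 neighbours with a rising effect and MECOM itself with a falling one. The slope was −0.94 for MECOM (SE 0.13, edgeR adjusted p = 7.48e-11), 0.84 for SKIL (SE 0.14, 5.69e-08), 0.69 for GPR160 (SE 0.13, 7.36e-06), 0.95 for LRRC31 (SE 0.33, 0.0257) and 0.38 for SEC62 (SE 0.13, 0.0227). GOLIM4 missed the threshold at −0.34 (SE 0.13, edgeR adjusted p = 0.0573), as did LRRC34 at −0.45 (SE 0.23, 0.174). Without the DMSO library of 48 h, SKIL was the 1 member called at 0.95, and the slope of MECOM was −0.38 (edgeR adjusted p = 0.789) and that of GPR160 0.61 (0.381). Without that of 12 h, the slope of MECOM was −1.51 and that of SEC62 0.17 (edgeR adjusted p = 0.782). The call of LRRC31 was lost in 6 and that of SEC62 in 5 of the 9 fits that left out 1 library. Scaling to the library total also ended the calls of LRRC31 (edgeR adjusted p = 0.0563) and SEC62 (0.162), and DESeq2 that of LRRC31 (adjusted p = 0.128).

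The effect at 48 h was read from the same fit with slopes, a choice made after the values were seen. Its p-values rest on the same spread shared over genes. There 7 of 10 members passed, against 44.3% of 17218 genes. MECOM had −1.83 (SE 0.17, edgeR adjusted p = 5.10e-26), LRRC34 −1.25 (SE 0.30, 1.32e-04) and GOLIM4 −0.44 (SE 0.17, 0.0281). SKIL had 1.98 (SE 0.19, edgeR adjusted p = 6.00e-23), LRRC31 1.87 (SE 0.38, 6.77e-06), GPR160 1.27 (SE 0.18, 3.24e-11) and SEC62 0.69 (SE 0.17, 3.02e-04). MYNN at −0.33, PHC3 at 0.18 and PRKCI at −0.14 did not pass. At 48 h the fall of MECOM thus stood beside a fall of 2 neighbours and a rise of 4.

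Talazoparib and olaparib were compared at the same times, although at 1 and 10 µM. No member differed by edgeR's test, and the call rate was 0.0% of 17218 genes, with 354 genes at an unadjusted p under 0.05 and 1 gene called by DESeq2. The log2 difference, talazoparib minus olaparib, was −0.40 for MECOM with a 95% interval of −1.29 to 0.49, and −0.39 (−1.02 to 0.25) for LRRC34. For GPR160 it was 0.10 (−0.54 to 0.74) and for SKIL 0.21 (−0.48 to 0.89). Each of these 4 intervals spans more than 1 log2 unit, so the inhibitors are not shown to act alike on these genes. The single-library ratios at 48 h were farther from 0 after talazoparib than after olaparib for 9 of 10 members, all but PHC3, with 1 library behind each.

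In the knockdown, 3 of 10 members passed with shEVI1-2531, against 17.4% of 18606 genes. MECOM, the target of both shRNAs, is in this count and in that of shEVI1-2532 below, so neither is a count of neighbours alone. MECOM had −1.34 (SE 0.19, edgeR adjusted p = 6.44e-04), GPR160 1.27 (SE 0.18, 6.73e-04) and SKIL 0.99 (SE 0.26, 0.0220). LRRC31 had 1.39 (SE 0.45, edgeR adjusted p = 0.0526), and without NTC at day 6 the value of SKIL was 0.53 (edgeR adjusted p = 0.170). With shEVI1-2532, which lowered MECOM more, 6 of 10 members passed, against 41.1%. MECOM had −3.04 (SE 0.21, edgeR adjusted p = 7.95e-07), LRRC34 −1.50 (SE 0.34, 0.00396), LRRC31 2.88 (SE 0.43, 2.38e-04), GPR160 2.19 (SE 0.19, 3.87e-06), SKIL 1.47 (SE 0.26, 9.15e-04) and SEC62 0.60 (SE 0.14, 0.00552). MYNN had −0.52 (SE 0.21, edgeR adjusted p = 0.0619) and passed in 8 of 11 alternatives, and SEC62 had 0.42 (edgeR adjusted p = 0.0759) without NTC at day 6. With scaling to the library total, SEC62 had 0.30 (edgeR adjusted p = 0.109) for shEVI1-2532 and SKIL 0.82 (0.0548) for shEVI1-2531. GOLIM4 at −0.08, PHC3 at 0.29 and PRKCI at 0.38 did not pass.

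**Figure D3:**
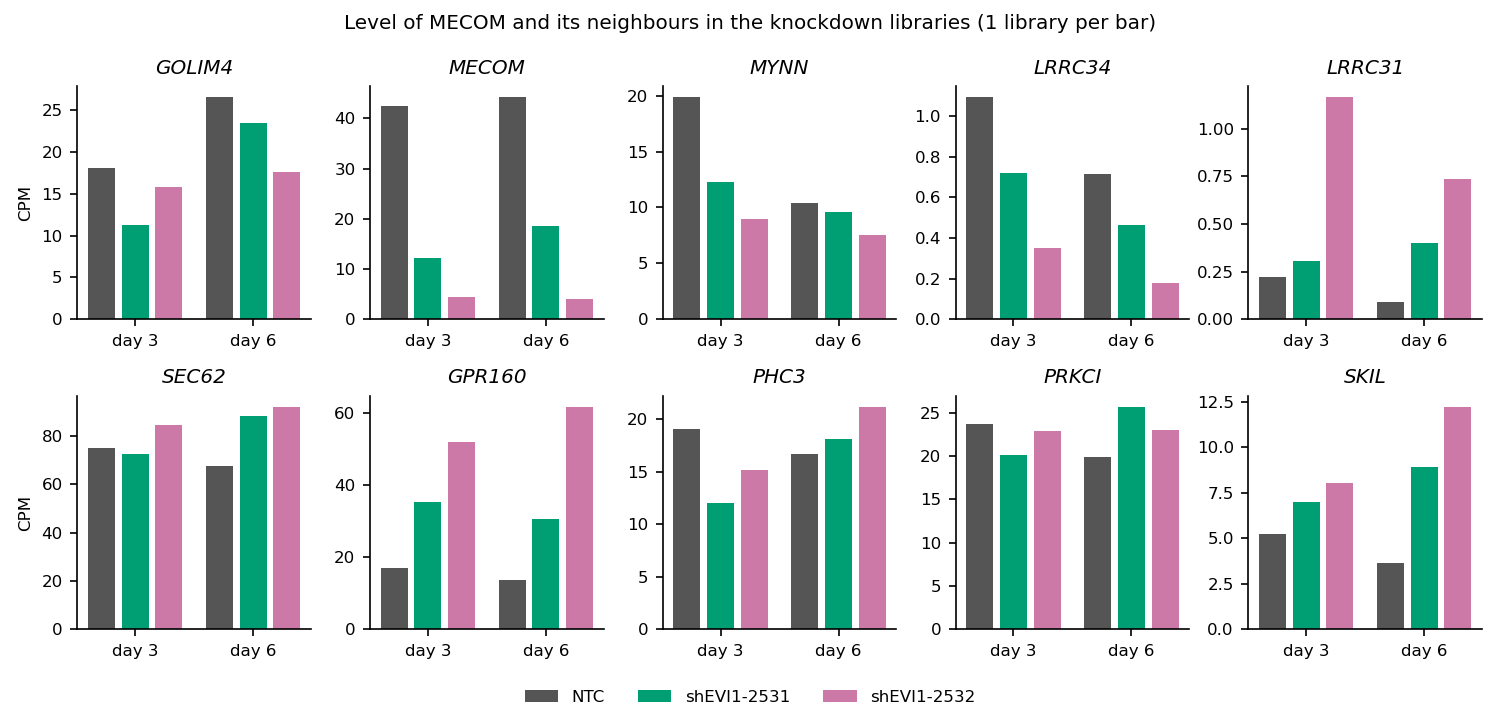
Level of each gene in CPM (y axis, linear, from 0) in the NTC, shEVI1-2531 and shEVI1-2532 libraries at day 3 and day 6 (x axis), 1 library per bar. MECOM and LRRC34 stepped down, and GPR160, LRRC31 and SKIL stepped up, from NTC to shEVI1-2531 to shEVI1-2532 at both days.

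Whether a neighbour moved after PARPi and not after shEVI1 was tested as the difference of both effects in 1 fit of 15 libraries. Averaged over time points and days, 0 of 10 members passed, against 5.15% of 18510 genes, with 2 members at an unadjusted p under 0.05. These were GPR160, where PARPi minus shEVI1 was −1.15 (95% interval −1.93 to −0.37, edgeR adjusted p = 0.0912), and MECOM, at 1.29 (0.25 to 2.33, edgeR adjusted p = 0.147). Both passed without the 48 h libraries, at −1.48 and 1.90, and with shEVI1-2532 as the only shRNA, at −1.60 and 2.15. For LRRC34 the difference was 0.19 (−0.56 to 0.94), for MYNN 0.13 (−0.35 to 0.60) and for GOLIM4 0.08 (−0.49 to 0.65).

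With the PARPi effect at 48 h in place of the average, again 0 of 10 passed, against 10.6% of genes. MECOM then differed by 0.36 (95% interval −0.21 to 0.93), and the largest difference was that of SKIL, 0.75 (0.08 to 1.43, edgeR adjusted p = 0.146). LRRC34 differed by −0.28 (−1.10 to 0.54), LRRC31 by −0.26 (−1.37 to 0.86), GPR160 by −0.45 (−0.94 to 0.03), PRKCI by −0.44 (−0.92 to 0.05) and GOLIM4 by −0.27 (−0.81 to 0.27). No neighbour was therefore shown to move after PARPi and not after shEVI1, and the widest of these intervals, those of LRRC31 and LRRC34, still hold a log2 difference of −1.

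Single libraries with a similar loss of MECOM can be set side by side. Talazoparib at 48 h and shEVI1-2532 at day 3 had MECOM ratios of −2.90 and −3.24. LRRC34 had −2.04 and −1.65 in them, MYNN −0.86 and −1.15, GPR160 1.27 and 1.60 and LRRC31 1.68 and 2.38. GOLIM4 had −0.99 and −0.19, PRKCI −0.63 and −0.04 and SKIL 1.77 and 0.62. LRRC34, GOLIM4, PRKCI and SKIL were thus farther from 0 after talazoparib, and MYNN, GPR160 and LRRC31 farther from 0 with the shRNA. Olaparib at 48 h and shEVI1-2531 at day 3 had MECOM ratios of −1.59 and −1.79. GOLIM4 had −0.55 and −0.69 there and PRKCI −0.31 and −0.24, and SKIL had 1.67 and 0.42. LRRC34 had −0.86 and −0.60, MYNN −0.40 and −0.70 and GPR160 0.88 and 1.05. LRRC31 had 1.65 and 0.44, so in this pair it was farther from 0 after the inhibitor. These gaps depend on the day, since SKIL had 1.75 with shEVI1-2532 and 1.30 with shEVI1-2531 at day 6, and GOLIM4 had −0.59 with shEVI1-2532. Each value has 1 library behind it.

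**Figure D4:**
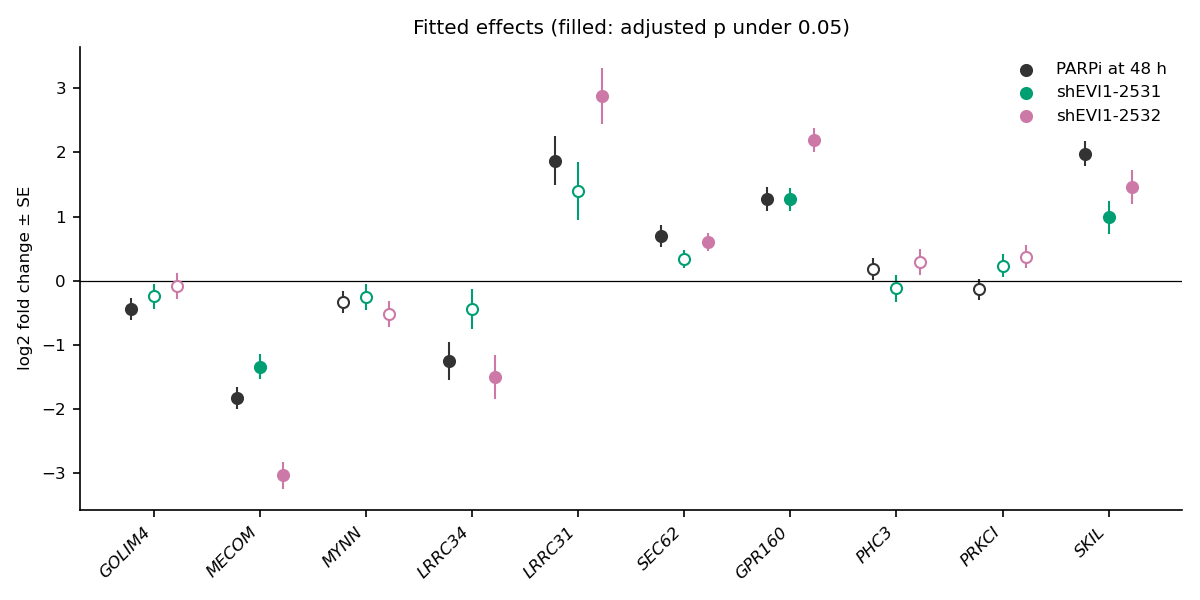
Fitted log2 fold change (y axis) with its standard error for each gene in chromosome order (x axis), for PARPi at 48 h and for each shRNA. Filled points had an adjusted p under 0.05. MECOM, GOLIM4, MYNN and LRRC34 lay below 0, and LRRC31, SEC62, GPR160 and SKIL above 0, in all 3 series.

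The controls moved too. From untreated cells at 0 h to DMSO at 12, 24 and 48 h, the log2 CPM ratio of MECOM was 0.85, 0.84 and 1.16, and that of SKIL −1.34, −1.83 and −2.05. LRRC31 had 0.71, 0.92 and 1.70, while PHC3 stayed between −0.14 and −0.10. MECOM and SKIL therefore moved in opposite directions in the vehicle series as well. LRRC31 was above untreated cells beyond counting error only in DMSO at 48 h, where MECOM was higher too, whereas after PARPi it rose as MECOM fell. From NTC at day 3 to NTC at day 6, MECOM had a ratio of 0.06, MYNN −0.93, LRRC31 −1.29, GOLIM4 0.55 and SKIL −0.53.

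None of the neighbours with a level high enough to be ranked was among the genes whose pattern was most like that of MECOM. Over the 10 single-library log2 ratios, the root mean square difference from MECOM was 0.32 for DNMT3B, a DNA methyltransferase, 0.36 for BCAT1, an enzyme of branched-chain amino acids, 0.39 for BCL11A, a transcription factor, 0.41 for SMC4, a condensin subunit, and 0.42 for BRCA1, a DNA repair gene. They were chosen by this measure among 8988 genes whose mean log2 CPM exceeded 3. Among these, MYNN ranked 1747, GOLIM4 2616, PRKCI 5471, PHC3 5721, SEC62 7573, SKIL 8801 and GPR160 8822, and LRRC34 and LRRC31 were below the level needed. The 6 PARPi and 4 shEVI1 ratios share DMSO and NTC libraries, so this is a description.

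Within 3 Mb of either end of MECOM, the files list 102 genes that are not members, of which 15 were tested in the PARPi fits. In the slope test 2 of 15 passed, against 19.8% of all genes, both with a rising effect, SERPINI1 at 1.05 (SE 0.17), a serine protease inhibitor, and TNFSF10 at 0.46 (SE 0.13), the death ligand TRAIL. TNFSF10 fell by 0.72 on the log2 scale with shEVI1-2532, and 5 of 19 tested neighbours rose and 3 fell with that shRNA, against 41.1% of all genes called. EGFEM1P, a pseudogene on the centromeric side whose 5′ end lies 1.41 Mb from that of MECOM, was the one gene of this window to pass in PARPi minus shEVI1 (edgeR adjusted p = 0.0465). It had 25 and 24 counts in NTC, 0 and 1 with shEVI1-2531 and 0 and 2 with shEVI1-2532. In the time course it had 7, 9 and 16 counts in DMSO, 9, 7 and 2 after olaparib and 10, 12 and 3 after talazoparib. Its 48 h inhibitor libraries were thus low as well, and the test of the average includes 12 and 24 h, when they were not.

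**Figure D5:**
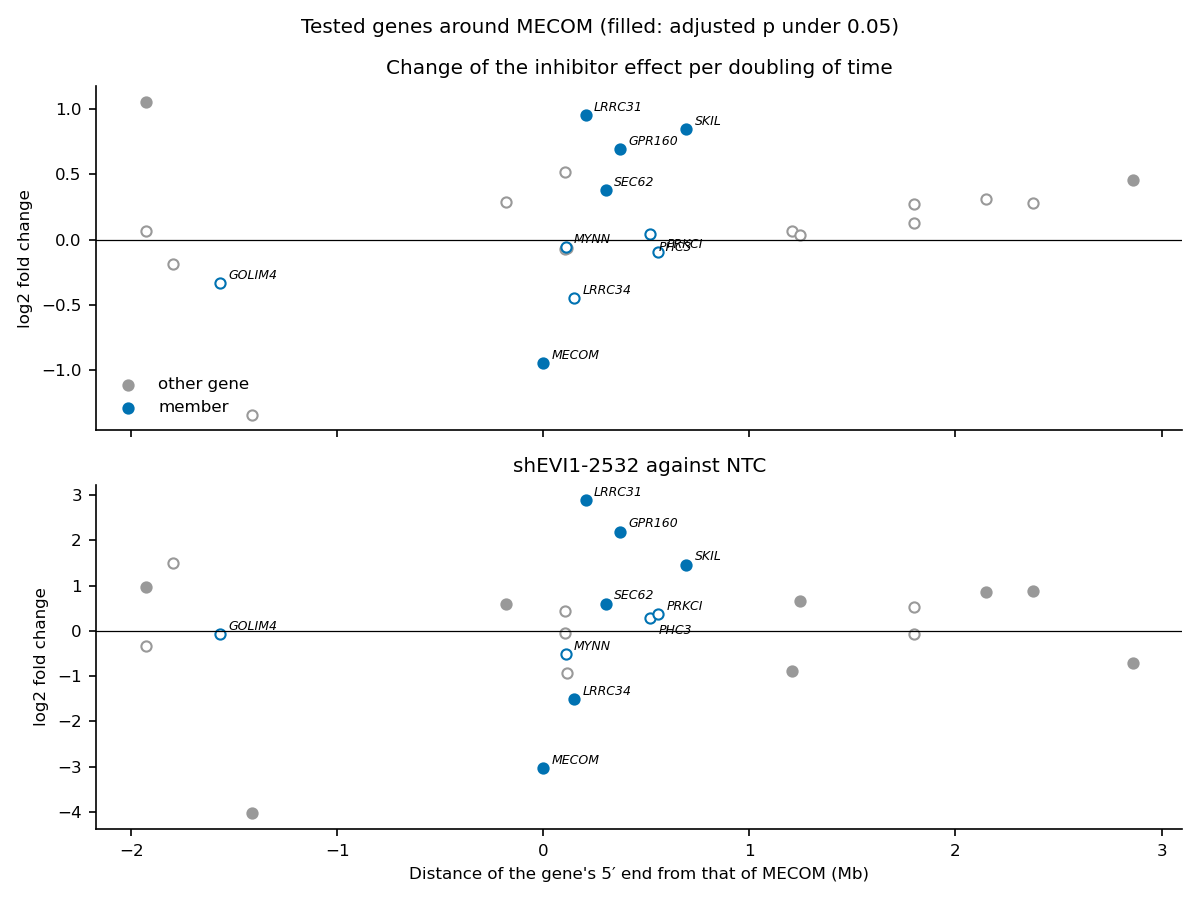
Change of the inhibitor effect per doubling of time (top, log2, y axis) and effect of shEVI1-2532 (bottom, log2 fold change, y axis) for the tested genes around MECOM, against the distance of their 5′ ends from that of MECOM in Mb (x axis). Genes that rose and genes that fell lay interspersed, and MECOM, LRRC34, LRRC31, SEC62, GPR160 and SKIL were filled (adjusted p under 0.05) in the lower panel.

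Genes that work with the neighbours were counted from lists chosen with earlier results of these data known. Their counts stand against 19.8% of all genes called in the slope test, 17.4% with shEVI1-2531 and 41.1% with shEVI1-2532, where 3942 of 18606 genes rose. Of 10 SMAD signaling genes related to SKIL, 3 passed the slope test with a rising effect and 1 with a falling one, with a median of −0.02 against −0.01 over all genes. They included SKI, a further repressor of SMADs, at 0.54, the receptor TGFBR2 at 0.50 and SMAD3 at −0.63. With shEVI1-2531 5 of 10 rose and 0 fell, and with shEVI1-2532 7 of 10 rose and 0 fell with a median of 1.04 against 0.00, led by TGFBR2 at 2.07 and TGFBR1 at 1.63. Of 15 other subunits of Polycomb repressive complex 1, which PHC3 belongs to, 2 passed the slope test, CBX2 at −0.54 and PCGF6 at −0.37, and with shEVI1-2532 2 rose and 5 fell. CBX2 had −1.48, PCGF6 −1.57 and CBX7 2.46 with that shRNA, whereas PHC3 itself did not pass.

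Of 8 polarity genes related to PRKCI, 1 rose and 1 fell in the slope test, SQSTM1, an autophagy receptor, at 0.55 and LLGL1 at −0.54. With shEVI1-2532 2 rose and 2 fell, SQSTM1 at 1.37, PRKCZ at 0.61, LLGL1 at −0.69 and PARD3 at −2.70. Of 6 translocon genes related to SEC62, 0 passed the slope test, and SEC61A2 fell by 1.07 with shEVI1-2532. Of 15 other PRDM genes 9 were tested, 0 passed the slope test, and with shEVI1-2532 PRDM13 had 1.37, PRDM8 −0.70 and PRDM15 −0.67.

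The 3q21 genes at the other end of the inversion were followed as the donor side of the enhancer. Of 7 genes, 0 rose and 2 fell in the slope test, against 19.8% of all genes called, EEFSEC at −0.63 and ACAD9 at −0.36. GATA2, which this enhancer serves on the unrearranged chromosome, had a slope of −0.06 (SE 0.13) and a mean PARPi effect of 0.24 (SE 0.09, edgeR adjusted p = 0.0958). It fell by 0.81 (SE 0.15, edgeR adjusted p = 0.00118) with shEVI1-2532. With shEVI1-2531 it had −0.23 (SE 0.15, edgeR adjusted p = 0.335) and did not pass. PARPi minus shEVI1, which averages both shRNAs, was 0.78 (SE 0.16, edgeR adjusted p = 0.0182) for GATA2. RPN1, the gene nearest to the 3q21 breakpoints, had a slope of −0.05 and −0.06 with shEVI1-2532, and 0.46 (SE 0.13, edgeR adjusted p = 0.0265) with shEVI1-2531. GATA2 thus differed between PARPi and the average of both shRNAs by the test that none of the 10 members passed.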

How the data were processed

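RNA-Seq of MUTZ-3 cells (stranded mRNA libraries, paired reads) was analysed in 16 libraries, grouped by GEO labels. The submitters' processing notes name STAR, Picard and featureCounts with hg38 (GRCh38), without versions, and whether counting used strand is not given in the sources used here. The authors deposited raw counts per gene and TPM for 60623 genes, and the deposited TPM equal counts over the whole gene span, introns included, as checked on the values. TPM were used for nothing else. The file of shEVI1-2531 carries another shRNA number in its name, so its identity rests on the sample labels.

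Single-library ratios used CPM with exact binomial 95% intervals, which cover counting error only, and 3 counts as the floor. Genes reaching 10 counts in 3 or more libraries (2 in the knockdown) were fitted with edgeR 4.0.16 in R 4.3.3 (TMM, quasi-likelihood, Benjamini-Hochberg, threshold 0.05), with DESeq2 1.42.0 as an alternative. PARPi fits held 9 libraries, knockdown fits 6 and the joint fit 15, with time point or day as a factor and 1 coefficient per inhibitor or shRNA. They left 4 residual degrees of freedom for the mean PARPi effect, 2 for the slope, 2 for the knockdown and 6 for the joint fit. The slope was on log2 hours centred at 24 h. Untreated cells entered no test. The steps were tested on simulated data. The members, lists and tests were chosen with earlier results of these data known. Genes named besides the members were those of the window within 3 Mb that passed (at most 5 per test), the 5 genes most like MECOM, and in each list the 2 with the smallest p in each direction of the slope and shEVI1-2532 tests, with GATA2 and RPN1 always.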

Additional observations from a re-analysis of the deposited data

Results flagged for a closer look

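The effect of PARPi differed between time points for 5 of the 10 genes by edgeR's test of the slope, with adjusted p under 0.05. The same test called 19.8% of 17218 genes. Per doubling of time the effect changed by −0.94 on the log2 scale for MECOM, 0.84 for SKIL, 0.69 for GPR160, 0.38 for SEC62 and 0.95 for LRRC31. Of 9 fits that left out 1 library, 6 lost the call of LRRC31 and 5 that of SEC62. Without the DMSO library of 48 h the slope of MECOM was −0.38. The difference between talazoparib and olaparib passed for 0 of the 10 genes, and for 0 of 17218 genes, in the fit of the mean effect. The p-values of that fit are not on the same footing as those of the slope, so these call rates are not comparable. No group held 4 or more libraries, so no library was tested as far from the rest of its group.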

How the results depend on the processing

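No paired analysis was possible because the labels give no replicate numbers and each condition has 1 library. The fits matched libraries by hour or day instead. The alternatives were DESeq2, other scalings, no filter on low counts and leaving out libraries, and both that read the PARPi effect at 48 h were chosen after seeing the data. The cause of a change was not tested.

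For the mean PARPi effect the count of genes called was 718, and it was 3438 with DESeq2, 468 with the library total only, 3728 without a filter, 16 without the time point in the model and 7626 at 48 h. The members called were 3 with DESeq2, 4 without a filter and 7 at 48 h. Leaving out a time point gave 0 (without 24 h, with 2176 genes at an unadjusted p under 0.05) to 3768 (without 12 h) genes and 0 to 6 members. For the slope, leaving out 1 library gave 258 (without DMSO at 48 h) to 3817 genes and 1 to 6 members. For talazoparib minus olaparib, where 0 genes were called by edgeR, the count was 1 with DESeq2, 5 without a filter and 0 to 2 without a time point. For shEVI1-2531, 1 member, GPR160, was called with all 15 libraries in one fit (edgeR adjusted p = 0.0292, against 0.0596 for MECOM and 0.114 for SKIL), and leaving out 1 library gave 1830 to 3885 genes. For PARPi minus shEVI1 the count of genes was 954, and it was 1636 with DESeq2, 1814 without a filter, 1762 with shEVI1-2532 only and 1969 with the PARPi effect at 48 h. Leaving out a time or day gave 79 (without day 6) to 2505 (without 48 h) genes and 0 to 2 members. The members called were 1 with DESeq2, 2 without a filter and 2 with shEVI1-2532 only.

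Scaling to the library total moved the split of genes called higher and lower from 1721 and 1691 to 1091 and 2424 for the slope, from 1765 and 1470 to 1049 and 2270 for shEVI1-2531, from 3942 and 3706 to 2360 and 5957 for shEVI1-2532, and from 721 and 233 to 889 and 119 for PARPi minus shEVI1. With it, the value of PHC3 turned to −0.068 for the slope and −0.013 for shEVI1-2532, and that of SKIL to 0.022 for PARPi minus shEVI1. It also ended the slope calls of LRRC31 and SEC62 and the calls of SEC62 for shEVI1-2532 and SKIL for shEVI1-2531, while GOLIM4 passed for the slope and MYNN for shEVI1-2532. With TMM-adjusted library sizes the log2 ratio of MECOM was −1.42 for olaparib and −2.64 for talazoparib at 48 h, −1.63 and −1.09 for shEVI1-2531 and −3.04 and −3.18 for shEVI1-2532 at day 3 and 6. The ratio of GOLIM4 for shEVI1-2532 at day 3 turned to 0.0068, that of MYNN for shEVI1-2531 at day 6 to 0.040 and that of SEC62 for shEVI1-2531 at day 3 to 0.11.

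With the PARPi effect at 48 h, PARPi minus shEVI1 turned to −0.27 for GOLIM4, −0.28 for LRRC34, 0.22 for SEC62 and 0.75 for SKIL, and with shEVI1-2532 only to −0.14 for PHC3. Leaving out a time or day gave ranges for this difference of −0.067 to 0.32 for GOLIM4, −0.21 to 0.43 for MYNN, −0.068 to 0.38 for LRRC34, −0.35 to 0.057 for SEC62, −0.32 to 0.42 for PHC3 and −0.67 to 0.35 for SKIL. For the mean PARPi effect the range was −0.23 to 0.13 for GOLIM4 and −0.15 to 0.055 for PRKCI. For the slope it was −0.26 to 0.15 for MYNN, −0.050 to 0.13 for PHC3 and −0.41 to 0.22 for PRKCI. For talazoparib minus olaparib it was −0.23 to 0.025 for GOLIM4, −0.18 to 0.075 for LRRC31, −0.14 to 0.32 for GPR160 and −0.010 to 0.10 for PHC3. For shEVI1-2531 it was −0.58 to 0.065 for GOLIM4, −0.55 to 0.059 for MYNN and −0.47 to 0.24 for PHC3. For shEVI1-2532 it was −0.37 to 0.19 for GOLIM4 and −0.073 to 0.64 for PHC3. None of these members passed in the comparison named as reported, and PHC3 passed for shEVI1-2532 without NTC at day 3 (0.64, edgeR adjusted p = 0.0358).

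LRRC31 and LRRC34, with 10 to 176 counts in the controls, are limited by depth, and their single-library ratios carry the widest intervals.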
